A study of Mus musculus with 4 samples.

Results

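The 7 genes described here are Foxp3, Il2ra, Ikzf2, Tnfrsf18, Tnfrsf4, Tnfrsf9 and Ccr8, chosen by name as genes of regulatory T (Treg) cells and matched by symbol in the feature tables, 7 of 32285 genes. They were measured in 4 Visium sections, a method in which each barcoded spot of a slide collects RNA from the tissue lying on it, so that 1 spot can hold several cells. Each section was cut from an MC38 tumor (a colon carcinoma line derived from a C57BL/6 mouse) grown subcutaneously in female mice aged 8 to 12 weeks. The hosts were F1 animals with a C57BL/6J parent and a Collaborative Cross parent (recombinant inbred mice from several founder strains): CC075/UncJ for 2 sections, called CC075F1, and CC080/TauUncJ for 2, called CC080F1. In the study's terms CC075F1 responds to anti-PD-1 and CC080F1 does not. The only agent given to any of the 4 mice was the isotype control antibody 2A3, as 1 dose of 200 µg once the tumor measured 75 to 110 mm3, and harvest followed 48 hours after the dose. None of the 4 sections came from an anti-PD-1 treated tumor. The comparison asks whether Treg genes differed between the tumors of the 2 strains before therapy, and where in the tissue they lay.

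Treg cells are CD4+ T cells that restrain the activity of other T cells, and they gather in many solid tumors. FOXP3 is the transcription factor that defines them. IL2RA (CD25) is the high-affinity subunit of the interleukin 2 receptor, and IKZF2 (Helios) is an Ikaros-family transcription factor found in many Treg cells. TNFRSF18 (GITR), TNFRSF4 (OX40) and TNFRSF9 (4-1BB) are costimulatory receptors of the TNF receptor superfamily, and CCR8 is a chemokine receptor of tumor-infiltrating Treg cells. Apart from Foxp3, none of these genes is limited to Treg cells: activated CD8+ T cells, natural killer (NK) cells, dendritic cells and other cells can express several of them.

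Tnfrsf4 and Tnfrsf18 are neighbours in the genome, on the same strand of chromosome 4. On GRCm38, GENCODE vM21 places Tnfrsf4 at chr4:156013843-156016612 and Tnfrsf18 at chr4:156026164-156028895, 9551 bases further on. Tnfrsf9 is on the same chromosome (chr4:150914562-150946102), and Foxp3 is on the X chromosome (chrX:7573644-7595245). The other genes lie on chr2:11642807-11693193 (Il2ra), chr1:69531214-69687245 (Ikzf2, minus strand) and chr9:120092114-120094906 (Ccr8). All 7 are protein coding, and all but Ikzf2 are on the plus strand. RefSeq promoter windows on GRCm38.p6 (250 bases before to 50 after an annotated start) were found for 6 of the 7 genes, as 8 entries. The windows of Foxp3, the defining gene, and of the neighbouring receptor genes Tnfrsf18 and Tnfrsf4, whose UMIs lay in the same spots more often than expected, are shown 5′ to 3′ on the plus strand, with matches to the STAT motif TTCNNNGAA in capitals. STAT5 is the transcription factor that the interleukin 2 receptor activates. The windows are chrX:7580233-7580532, chr4:156026072-156026371 and chr4:156013445-156013744.
Foxp3: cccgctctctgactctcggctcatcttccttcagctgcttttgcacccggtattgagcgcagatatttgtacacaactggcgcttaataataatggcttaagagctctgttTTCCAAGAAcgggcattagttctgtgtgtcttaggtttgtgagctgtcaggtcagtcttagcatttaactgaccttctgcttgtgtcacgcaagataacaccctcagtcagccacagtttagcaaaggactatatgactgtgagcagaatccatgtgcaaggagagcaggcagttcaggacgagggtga
Tnfrsf18: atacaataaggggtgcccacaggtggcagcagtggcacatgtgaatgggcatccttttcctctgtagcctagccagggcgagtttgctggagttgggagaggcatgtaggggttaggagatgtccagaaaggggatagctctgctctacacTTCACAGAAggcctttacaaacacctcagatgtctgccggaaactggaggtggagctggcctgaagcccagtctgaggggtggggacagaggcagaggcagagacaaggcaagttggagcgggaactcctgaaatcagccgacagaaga
Tnfrsf4: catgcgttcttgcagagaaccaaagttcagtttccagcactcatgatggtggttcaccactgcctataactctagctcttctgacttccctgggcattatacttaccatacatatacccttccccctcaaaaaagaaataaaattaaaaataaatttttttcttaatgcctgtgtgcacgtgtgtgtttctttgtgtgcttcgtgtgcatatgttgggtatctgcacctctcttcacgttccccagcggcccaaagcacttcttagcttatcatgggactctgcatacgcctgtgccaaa

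The STAT motif, searched on both strands, had 1 match in the Foxp3 window shown, 1 in that of Tnfrsf18 and 0 in that of Tnfrsf4. The windows of Il2ra and Ccr8 and the other window of Foxp3 had 0 matches, and 1 of the 2 windows of Tnfrsf9 had 1. Of all 32851 promoter entries, 8.30% held this motif. The NFAT core GGAAA matched in 7 of the 8 windows, all but that of Ccr8, against 61.3% of all entries. The forkhead motif TGTTTAC (3.65% of all entries) matched in 0 of the 8, and the RUNX motif TGTGGT (16.8%) in 1, a window of Tnfrsf9. A match describes these letters alone.

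The sections held 2710 and 3276 spots (CC075F1 replicates 1 and 2) and 2787 and 3174 spots (CC080F1 replicates 1 and 2), with 82594649 to 146460975 UMIs (unique molecular identifiers, each marking 1 captured RNA molecule) and medians of 31139 to 41740 UMIs per spot. Spot barcodes come from a fixed set, and 1666 of them occurred in all 4 sections. Values below are given in this order of sections. Of the MC38 marker genes, Shisal2b was present at 123 to 267 CPM (UMIs scaled by the section's total UMIs), whereas Krt8 was at most 0.242 CPM in any section. Markers of adjoining tissue differed between sections: the 4 muscle genes summed to 123 CPM in CC075F1 replicate 2 and to 2.73 to 12.0 CPM in the others, and the 4 fat genes to 0.545 and 0.594 CPM in CC075F1 and 4.65 and 5.80 CPM in CC080F1. The 18 spots with at least 1% of UMIs from muscle, skin and fat genes were all in CC075F1 replicate 2.

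No Treg gene passed the test of a difference in level between the strains, and the CPM values of the 2 strains overlapped for each gene tested. The fold changes below are not on the scale of CPM, which uses total UMIs. They use TMM scaling, with factors of 1.08 and 0.745 for CC075F1 and 1.16 and 1.07 for CC080F1. Of the 7 genes, 6 had enough UMIs to be tested, and 0 of these passed an adjusted p of 0.05 in edgeR's quasi-likelihood test across 15572 genes, where 14 genes (0.0899%) did. At an unadjusted p below 0.05, again 0 of the 6 passed, against 5.43% of all genes. In other fits Tnfrsf18 did so, with no filter on low counts, with the replicate block and without CC080F1 replicate 2, and Ccr8 did so with no filter, each with an adjusted p above the threshold. The median log2 fold change of the 6 (CC075F1 over CC080F1) was 0.04, with 3 of 6 above 0, beside −0.02 over all genes. In a bulk sum over a section, fewer cells of a type and less RNA per cell cannot be told apart.

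Foxp3 gave 73 and 47 UMIs in the CC075F1 sections and 37 and 96 in those of CC080F1, which is 0.884, 0.321, 0.395 and 0.852 CPM. The high and the low value thus occurred once in each strain, and the groups overlapped fully. The log2 fold change was 0.13 ± 0.57 (SE), with a 95% interval of −1.22 to 1.47 and an adjusted p of 0.967 (edgeR, n = 2 sections per strain). A difference of 2-fold in either direction lies inside this interval, so the depth and the number of tumors could not have shown one. Without CC075F1 replicate 1 the log2 fold change was −0.40, and without CC080F1 replicate 1 it was −0.36. Cd4, the coreceptor of Treg and helper T cells, was likewise highest in CC075F1 replicate 1 (0.751 CPM) and next in CC080F1 replicate 2 (0.453 CPM), with 0.259 and 0.235 CPM in the other sections.

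Il2ra was at 1.40 and 0.751 CPM in CC075F1 and at 1.15 and 2.13 CPM in CC080F1. CC080F1 replicate 2 held the highest value, with 240 UMIs against 108 to 116 in each of the others, and the strains overlapped. Its log2 fold change was −0.37 ± 0.45 (SE; adjusted p = 0.865 in edgeR), and 0.23 without CC080F1 replicate 2.

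Ikzf2 was at 5.74 and 3.04 CPM in CC075F1 and at 6.16 and 5.73 CPM in CC080F1. Only CC075F1 replicate 2 stood apart, on the low side. The log2 fold change was −0.18 ± 0.26 (SE; adjusted p = 0.890 in edgeR), the narrowest of the 6 intervals (−0.81 to 0.44). Without that section it was 0.01.

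Among the TNF receptor genes, Tnfrsf18 was at 3.83 and 3.99 CPM in CC075F1 and at 1.89 and 3.90 CPM in CC080F1. In CPM a single section, CC080F1 replicate 1, was low, and the other 3 lay close together. The log2 fold change was 0.75 ± 0.44 (SE), with an adjusted p of 0.830 in edgeR. It was 0.43 with library size alone, fell to 0.29 without CC080F1 replicate 1 and was 1.46 without CC080F1 replicate 2. For Tnfrsf4 the values were 4.94 and 3.61 CPM against 3.15 and 5.01 CPM, and the log2 fold change was 0.35 ± 0.33 (SE; adjusted p = 0.838 in edgeR). In CPM the CC075F1 values lay inside the range of CC080F1, and with library size alone the log2 fold change was 0.065. It ran from 0.0050 without CC080F1 replicate 1 to 0.81 without CC080F1 replicate 2.

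Relative to its mean, Foxp3 varied most within a strain (CC075F1, SD 0.398 at a mean of 0.602 CPM). In absolute CPM Tnfrsf9, the Treg gene with the highest mean level, varied most. Tnfrsf9 was at 6.50 and 4.84 CPM in CC075F1, and at 3.997 and 10.2 CPM in CC080F1. CC080F1 replicate 2 alone gave 1151 UMIs, with up to 9 in 1 spot. The log2 fold change was −0.06 ± 0.45 (SE; adjusted p = 0.983 in edgeR), and 0.88 without that section. Of the 4 NK cell genes, Ncr1, Klrb1c and Eomes were highest in this section (2.61, 1.88 and 2.62 CPM), and Klrk1, which T cells express too, was not, at 5.51 CPM against 8.74 and 7.97 CPM in CC075F1. The 4 together summed to 11.6 and 10.4 CPM in CC075F1 and to 4.18 and 12.6 CPM in CC080F1. Ccr7, a receptor of mature dendritic and naive T cells, was at 3.26 CPM in CC080F1 replicate 2 and at 1.07 to 1.43 CPM elsewhere. Of the other mature dendritic cell genes listed, Il4i1 was also highest in that section (0.879 CPM). Fscn1 and Cacnb3 were highest in CC080F1 replicate 1 (230 and 18.6 CPM) and Ccl22 in CC075F1 replicate 1 (2.28 CPM). The part of NK and dendritic cells in the Tnfrsf9 and Il2ra values was not tested.

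Ccr8 gave 4 and 2 UMIs in CC075F1 and 0 in both CC080F1 sections, where a count of 0 allows up to 0.0321 and 0.0266 CPM (3 UMIs per section). It was too low for the test, and no fold is given. The values of the other genes by section are plotted with their counting intervals.

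**Figure D1:**
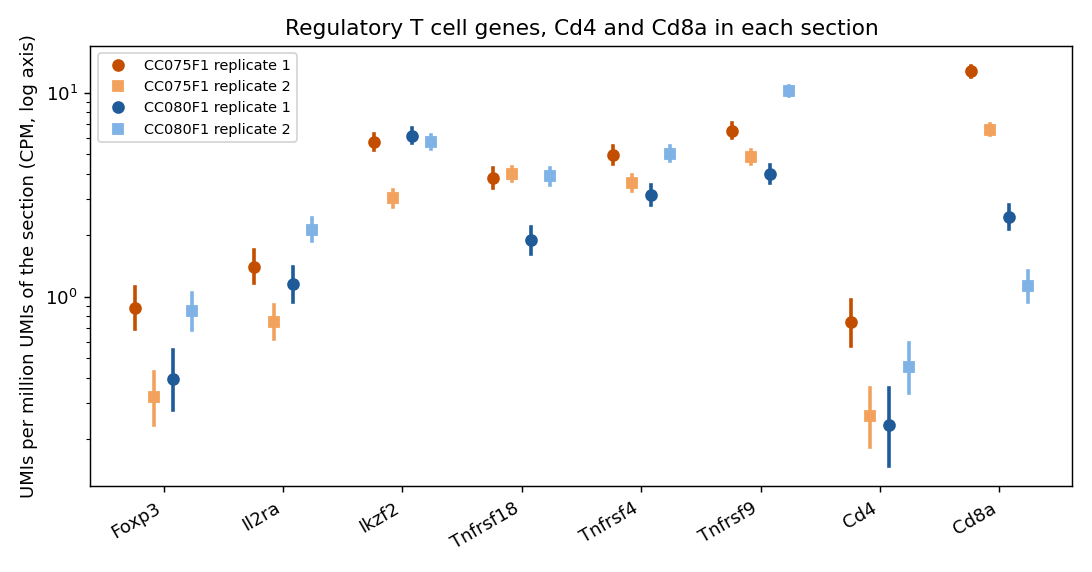
CPM (log axis) of 6 Treg genes, Cd4 and Cd8a in each of the 4 sections, with exact 95% Poisson intervals as bars, which cover counting error only; Ccr8, with 0 UMIs in both CC080F1 sections, is left out. The strains overlap for all 6 Treg genes and for Cd4, whereas both CC075F1 sections (12.7 and 6.59 CPM) lie above both CC080F1 sections (2.46 and 1.13 CPM) for Cd8a.

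None of the 6 tested genes had CPM values that separated the strains. Over all tested genes, 6.63% had both CC075F1 sections above both CC080F1 sections and 30.3% had both below. The 3 Cd3 genes did separate them. Cd3d, Cd3e and Cd3g, subunits of the T cell receptor complex, summed to 26.3 and 24.1 CPM in CC075F1 and to 8.24 and 7.31 CPM in CC080F1. Cd3g rose by 2.42 on the log2 scale (SE 0.27, adjusted p = 0.0491 in edgeR), the single call among 14 T cell reference genes, while Cd8a, the coreceptor of cytotoxic T cells, missed the threshold at 2.70 (SE 0.39, adjusted p = 0.0778 in edgeR). The call of Cd3g was lost without CC075F1 replicate 1 (adjusted p = 0.0633 in edgeR) and without CC075F1 replicate 2 (0.0727), and with other scaling (0.0528 and 0.0868) or limma-voom (0.0565), with the log2 fold change between 2.08 and 2.63 in all 11 alternatives.

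Ratios of Treg genes to Cd3 and Cd8a UMIs carry this difference between the strains in their denominators. Per Cd3 UMI, 96.6% of all tested genes were lower in both CC075F1 sections than in both CC080F1 sections, and 97.3% were per Cd8a UMI. Foxp3 came to 3.36 and 1.33 UMIs per 100 Cd3 UMIs in CC075F1 and to 4.80 and 11.7 in CC080F1, with means of 2.35 ± 1.44 and 8.22 ± 4.84 (SD, n = 2 each). The CC075F1 mean was 0.285 times that of CC080F1, and the groups did not overlap. The exact two-sided permutation test over sections gave p = 0.333, the smallest that 2 against 2 sections allow. Per 100 Cd8a UMIs, Foxp3 came to 6.95 and 4.87 in CC075F1 and to 16.1 and 75.6 in CC080F1, a ratio of means of 0.129 (exact permutation p = 0.333), and without CC080F1 replicate 2 it was 0.367.

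The other 5 tested genes took the same side: the ratio of means per Cd3 UMI ran from 0.196 for Il2ra to 0.409 for Tnfrsf18, and both CC075F1 sections were below both CC080F1 sections for 6 of 6 genes, a share near the background. Without CC080F1 replicate 2 the ratio was 0.302 for Il2ra, 0.678 for Tnfrsf18 and 0.462 for Tnfrsf9. With Cd3e alone as the denominator Tnfrsf18 overlapped, at 102 and 154 against 148 and 303 UMIs per 100. Ccr8, with 6 UMIs in all, was above 0 in CC075F1 alone. Tnfrsf9 had the widest spread in CC080F1, at 48.5 and 140 UMIs per 100 Cd3 UMIs, against 24.7 and 20.1 in CC075F1.

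Set against Cd4, a denominator chosen after the data were seen, the strains were closer. Foxp3 came to 118 and 124 UMIs per 100 Cd4 UMIs in CC075F1 and to 168 and 188 in CC080F1, a ratio of means of 0.677 (exact permutation p = 0.333). Foxp3, Il2ra and Ikzf2 were lower in both CC075F1 sections on this scale and Tnfrsf18, Tnfrsf4 and Tnfrsf9 overlapped, so that 3 of 6 genes were lower, against 28.0% of all tested genes. Cd4 itself gave 22 to 62 UMIs per section, which limits this ratio. Per 100 UMIs of Ptprc (CD45, carried by all leukocytes), Foxp3 came to 2.19 and 1.06 for CC075F1 and to 1.17 and 2.50 for CC080F1, which overlap.

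**Figure D2:**
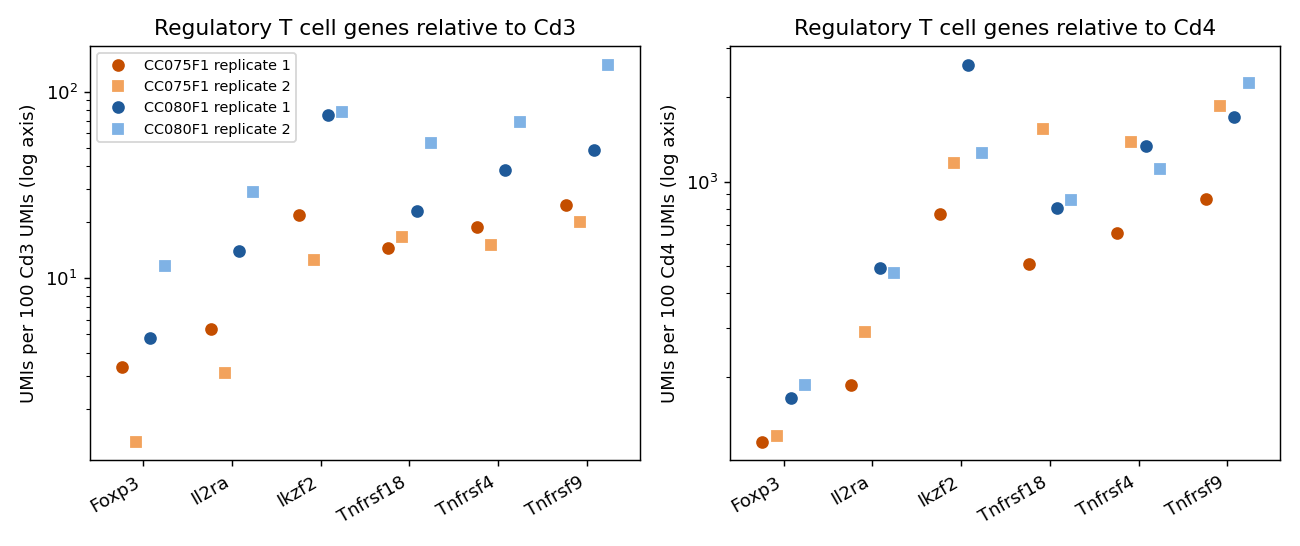
UMIs of each Treg gene per 100 Cd3 UMIs (left) and per 100 Cd4 UMIs (right), log axes, 1 point per section. Both CC075F1 sections lie below both CC080F1 sections for 6 of 6 genes relative to Cd3, where 96.6% of all tested genes do, and for 3 of 6 relative to Cd4.

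In the tissue, Foxp3 was sparse. At least 1 Foxp3 UMI was found in 68 and 45 spots of CC075F1 and in 37 and 90 spots of CC080F1, and no spot held more than 2. To compare sections at equal depth, the share of spots expected to hold a gene if each spot had 20000 UMIs was computed, leaving out 280 to 560 shallower spots per section. The share for Foxp3 was 1.69% and 0.621% in CC075F1 and 0.783% and 1.46% in CC080F1 (exact permutation p = 1 over sections). Without thinning it was 2.51%, 1.37%, 1.33% and 2.84%.

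Tnfrsf18 was in 7.06% and 7.67% of spots of CC075F1 and in 3.71% and 7.17% of CC080F1 at equal depth. For Tnfrsf9 the shares were 11.4%, 8.66%, 7.45% and 16.4%, again with both extremes in CC080F1. Ikzf2 was the only tested gene whose shares did not overlap between strains, at 10.5% and 5.95% against 11.5% and 10.6%, with 0.333 as the exact permutation p, and 29.7% of all tested genes were lower in both CC075F1 sections in this way. At 10000 UMIs per spot (5.75% and 3.20% against 6.01% and 5.70%) and at 5000 its shares overlapped. They did not overlap without thinning (15.7% and 12.3% against 18.5% and 18.1%). Nor did they with at least 2 UMIs required, or without muscle, skin and fat spots.

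A share of spots is not a share of cells. Foxp3 was found in 1.71%, 0.763%, 1.04% and 1.53% of spots that held a Ptprc UMI, and in 1.63%, 0.288%, 0.294% and 1.32% of spots without one, at equal depth. Cd3 was likewise found in 10.3% to 35.7% of spots without a Ptprc UMI, so a spot without one cannot be taken as free of leukocytes. Of spots with a Cd3 UMI, 1.96%, 0.739%, 1.07% and 2.48% held Foxp3, against 1.37%, 0.455%, 0.697% and 1.18% of spots without one. The share was higher beside Cd3 in 4 of 4 sections.

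**Figure D3:**
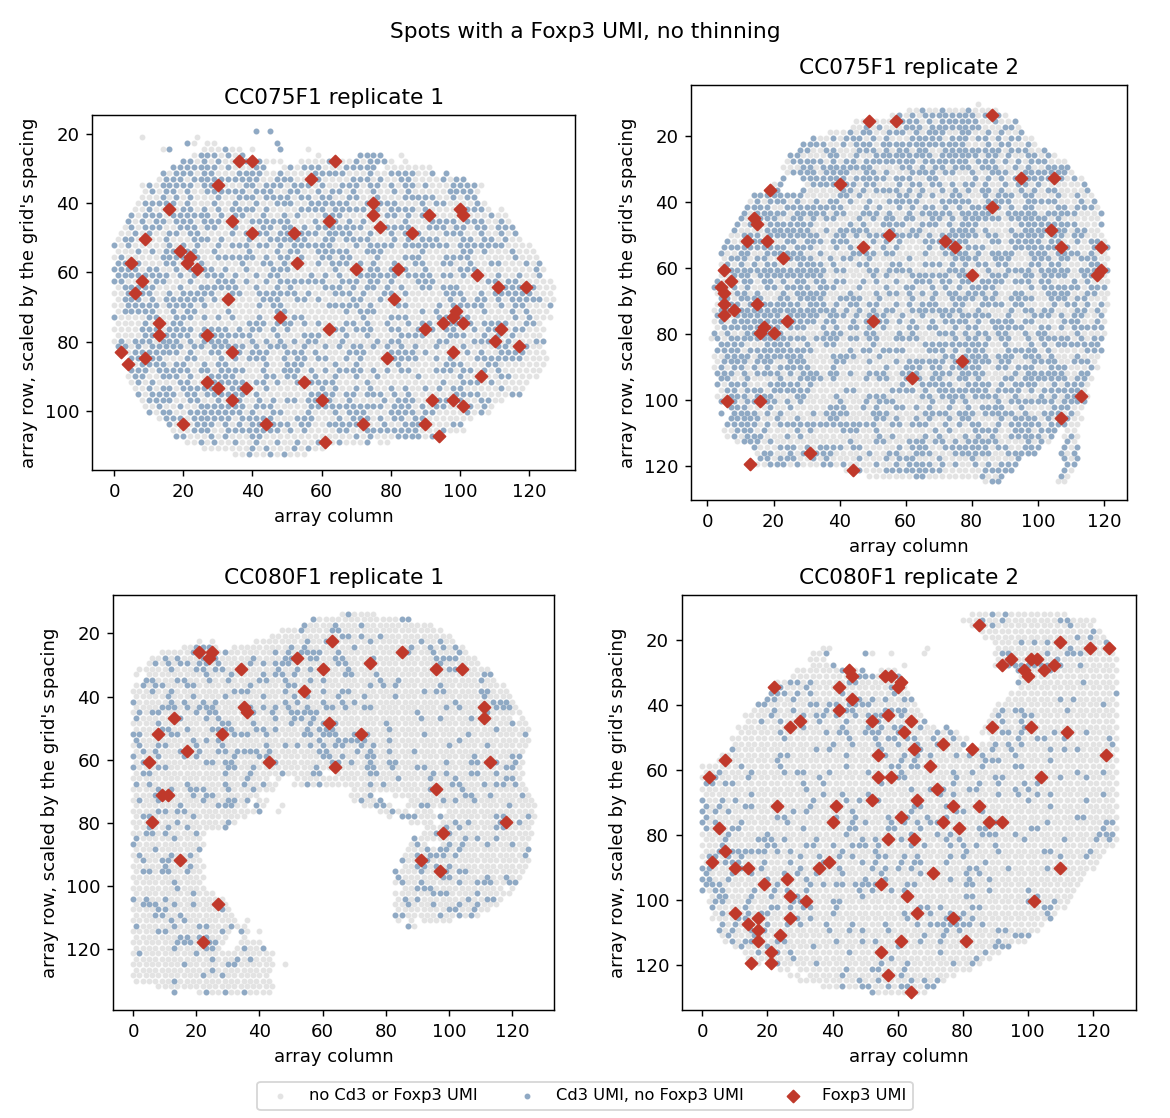
Position of each spot on the array (columns across, rows down, rows scaled by the grid's spacing) in the 4 sections. Grey spots held no Cd3 or Foxp3 UMI, blue spots a Cd3 but no Foxp3 UMI and red diamonds a Foxp3 UMI, in 68 and 45 spots of CC075F1 and in 37 and 90 of CC080F1.

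By their median ratio, pairs of Treg genes stood above pairs of a Treg gene with other tested genes. The other genes were not matched to the Treg genes by their share of spots. The number of spots with both genes of a pair, at 20000 UMIs per spot, was set against the product of the 2 shares times the number of spots, so that a ratio of 1 means no association within a section. Of the 21 pairs among the 7 genes, 14 had at least 5 such spots expected over the 4 sections. Among these, 12 had a summed ratio above 1 and 9 were above 1 in each of the 4 sections, and the median was 1.34. For 78782 pairs of a Treg gene with a tested gene outside the 7, 63.7% had a summed ratio above 1, 14.2% were above 1 in all 4 sections and the median was 1.01. The pairs share genes and sections, so they are not independent, and no test was made. Genes with a common regional pattern of any kind exceed 1 by this measure. A gene found in most spots cannot lie far above 1, so part of the gap between the medians can come from detection.

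Foxp3 and Tnfrsf18 had the highest ratio of these 14 pairs. Both were expected in 7.53 spots and found in 19.2, a ratio of 2.55, with 1.94 and 3.72 in CC075F1 and 2.31 and 2.59 in CC080F1. Il2ra and Tnfrsf18 followed at 2.47, with 2.50 and 2.48 in CC075F1 and 3.27 and 2.20 in CC080F1. For both pairs the ratio was above 1 in 4 of 4 sections, and the strains overlapped.

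Foxp3 and Il2ra, which together mark the classical CD25+ Treg cell, were expected in only 2.99 spots and found in 7.21, a ratio of 2.41. By section the ratio was 2.01 and 5.33 in CC075F1 and 0.763 and 2.67 in CC080F1, above 1 in 3 of 4. Without thinning, 30 spots held both against 11.4 expected, of which 16 were in CC080F1 replicate 2 and 1 was in CC080F1 replicate 1. At 10000 UMIs per spot, where shallower spots enter, the ratio was 4.55, on only 5.59 spots against 1.23 expected. CC080F1 replicate 2 gave 3.91 of these spots, and the ratio in CC080F1 replicate 1 was 0.614.

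The neighbouring genes Tnfrsf18 and Tnfrsf4 shared 93.0 spots where 53.3 were expected, a ratio of 1.75, at 1.45 and 2.18 in CC075F1 and 1.86 and 1.57 in CC080F1. The ratio of Foxp3 with Tnfrsf4 was 1.74, above 1 in 3 of 4 sections. Ikzf2 was close to 1 with Tnfrsf9 (0.993) and with Foxp3 (0.959, 10.9 spots against 11.3 expected, above 1 in 2 of 4 sections). At 10000 UMIs per spot, however, Foxp3 with Ikzf2 stood at 1.60, above 1 in 3 of 4 sections, so the value for this pair depends on which spots enter.

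**Figure D4:**
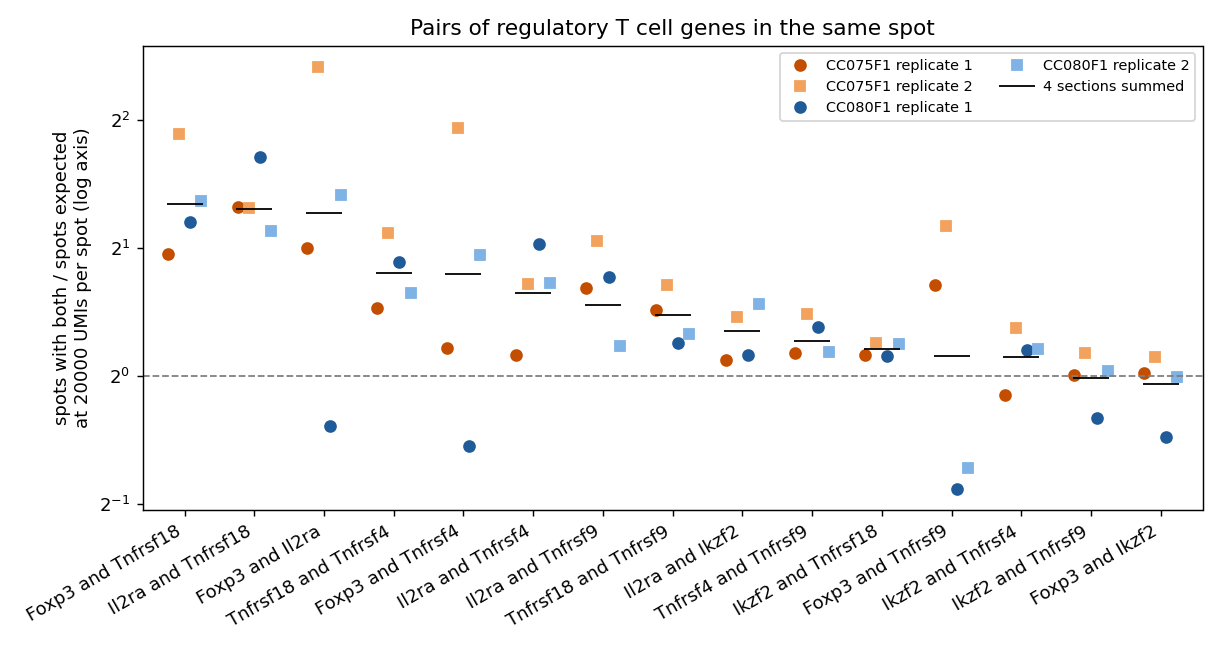
Ratio of spots with both genes to spots expected at 20000 UMIs per spot (log axis) for the 14 pairs with at least 5 spots expected and for Foxp3 with Il2ra; points are sections, black bars the ratio summed over the 4 sections and the dashed line a ratio of 1. Pairs are ordered by the summed ratio, from 2.55 for Foxp3 and Tnfrsf18 to 0.959 for Foxp3 and Ikzf2.

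The same ratio was computed for Treg genes with partners of other kinds. With Ccr7, Il2ra stood at 2.78, Tnfrsf18 at 2.18 and Tnfrsf4 at 2.00, each above 1 in 4 of 4 sections. Foxp3 with Ccr7 was at 2.10, but on 7.17 spots against 3.41 expected, and at 0.417 in CC075F1 replicate 1. With Cd3, Il2ra stood at 1.59, Tnfrsf18 at 1.41 and Foxp3 at 1.37, above 1 in 4 of 4 sections for each.

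Cd8a gave lower ratios: Foxp3 stood at 1.06 (13.2 spots against 12.4 expected), Il2ra at 1.08 and Tnfrsf18 at 1.40. Adgre1, a macrophage gene, was near 1 with each of the 6 tested genes, from 0.985 for Ikzf2 to 1.06 for Foxp3. Without thinning, Adgre1 was in 81.3% to 83.7% of a section's spots, so its ratio cannot lie far above 1. Ccr7 was in 2.84% to 8.76%, so the ratios of different partners are not on a common scale. The difference between partners was not tested.

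The tissue edge was defined as spots within 3 grid steps of a position without tissue, so a gap inside a section counts as edge. The rim of the spot grid does not, and no outline of the tumor was traced. Treg genes mostly had a higher CPM at this edge than in the interior. CPM depends on the total UMIs of the edge spots, so a higher CPM need not mean more UMIs of a gene per spot. Tnfrsf18 was 1.65 and 2.24 times as high at the edge in CC075F1 and 1.38 and 1.62 times in CC080F1, in CPM. Tnfrsf4 gave 1.68 and 2.11 against 1.29 and 1.57, and Ikzf2 gave 1.18 and 1.62 against 1.15 and 1.12. These 3 of the 6 tested genes were above 1 in all 4 sections, as were 17.0% of all tested genes. Edge spots made up 568 of 2710 and 665 of 3276 spots in CC075F1, and 880 of 2787 and 648 of 3174 in CC080F1. They held 65 of 316, 147 of 585, 64 of 177 and 103 of 439 Tnfrsf18 UMIs. For Ikzf2 they held 74 of 474, 87 of 445, 184 of 576 and 113 of 646 UMIs. The edge's share of Ikzf2 UMIs was thus below its share of spots in both CC075F1 sections and in CC080F1 replicate 2. Per spot, Ikzf2 was not higher at the edge in those sections. For Tnfrsf18 the share of UMIs was below that of spots in CC075F1 replicate 1 alone. The other genes were not compared in this way.

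Foxp3 was less even. Its edge to interior ratio was 1.25 and 5.88 in CC075F1 and 0.785 and 1.97 in CC080F1, on 9 to 26 UMIs at the edge per section. The geometric mean over the 4 sections was 1.84, and without CC075F1 replicate 2 it was 1.25. Il2ra ranked the sections the same way, at 1.66 and 3.53 and at 0.855 and 2.60, and Tnfrsf9 was at 1.91 and 1.92 and at 1.41 and 0.976. Cd3 was at 1.28 and 1.51 and at 0.909 and 1.77, and Ptprc at 1.24 and 1.59 and at 0.928 and 1.09, so that in CC080F1 replicate 1 Cd3 and Ptprc were below 1 as Foxp3 and Il2ra were, while Tnfrsf18, Tnfrsf4, Tnfrsf9 and Ikzf2 were above 1. The part of T cell or leukocyte density in these ratios was not tested. An exact permutation of the strain labels cannot give a p below 0.333 for these ratios.

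**Figure D5:**
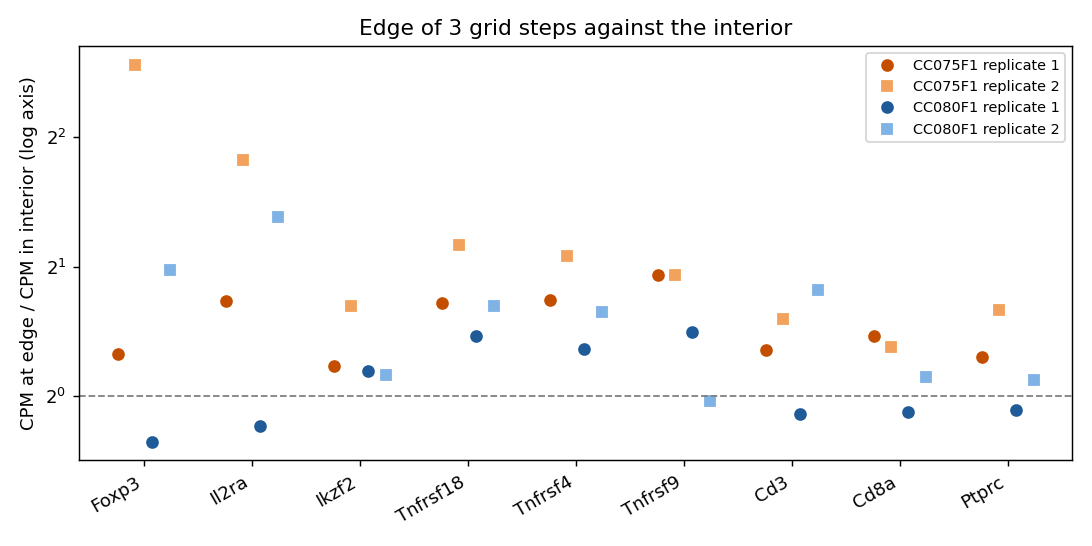
CPM at the edge divided by CPM in the interior (log axis) for 6 Treg genes, Cd3, Cd8a and Ptprc, 1 point per section, with the dashed line at 1. Tnfrsf18, Tnfrsf4 and Ikzf2 lie above 1 in 4 of 4 sections, and Foxp3 runs from 0.785 to 5.88.

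On a coarser scale, each section was divided into tiles of 8 array rows by 16 columns, and tiles with at least 32 spots were kept (42 and 53 in CC075F1, 44 and 51 in CC080F1). The summed CPM of the 7 genes varied across tiles from 12.5 to 37.2 and from 6.24 to 63.6 in CC075F1, and from 9.02 to 31.8 and from 14.6 to 92.6 in CC080F1. The genes whose CPM followed it most closely, of 9020 compared, were Gm2a (mean Spearman rho over sections 0.656), Rrbp1 (0.655), Anpep (0.645), Csf2rb (0.642) and Psap (0.630). Gm2a and Psap encode lysosomal sphingolipid activator proteins, Anpep a myeloid aminopeptidase and Csf2rb the common beta chain of the GM-CSF, IL-3 and IL-5 receptors. Egfl7 and Ecscr, next in rank, were almost level (0.628 each), Cd3 had 0.605 and Ptprc 0.571. Sections differed: Gm2a was at 0.287 in CC080F1 replicate 1. The median rho of all compared genes was 0.356 in CC075F1 replicate 2 and 0.0618 to 0.102 in the other sections. Each of the 6 tested genes against the sum of the other Treg genes had a mean rho of 0.131 (Ikzf2) to 0.518 (Tnfrsf18). Tiles of a section share a library, and the UMI total of a tile was itself related to the summed Treg genes (rho −0.658 and −0.620 in CC075F1, −0.403 and −0.642 in CC080F1), so that tiles with more RNA had lower values.

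The wider Treg programme held no call either. Of 24 other genes of Treg cells, 22 were tested and 0 passed the adjusted threshold, against 0.0899% of all genes. Of the 22, 13 were above 0 and the median log2 fold change was 0.04, beside −0.02 over all genes. Some of these genes lay far above Foxp3 (0.321 to 0.884 CPM), such as Capg at 139 to 157 CPM and Tgfb1 at 47.1 to 65.8 CPM. The part of other cells in this list was not tested. Ctla4, an inhibitory receptor, was at 1.31 and 0.819 CPM in CC075F1 and at 0.887 and 2.22 CPM in CC080F1. Icos, a costimulatory receptor, was at 2.00 and 1.26 CPM against 0.673 and 1.65 CPM. At an unadjusted p below 0.05 were Ebi3, a subunit of IL-35 and IL-27, at 1.00 (adjusted p = 0.396 in edgeR), and Entpd1 (CD39) at 0.79 (adjusted p = 0.780 in edgeR), 2 of 22 genes against 5.43% of all. Macrophages and dendritic cells express both too. The 4 macrophage genes summed to 1001 and 895 CPM in CC075F1 and to 735 and 796 CPM in CC080F1, and the 3 genes of type 1 conventional dendritic cells to 11.5 and 8.24 against 3.65 and 4.55 CPM, 3 of 3 at an unadjusted p below 0.05. Their part in Ebi3 and Entpd1 was not tested. Other named genes of this list were Klrg1 at −1.05 and Batf at 0.75, neither past the threshold.

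The interleukin 2 axis held 11 tested genes, of which 0 passed. Il2rg, the common gamma chain, was at 27.4 and 26.4 CPM in CC075F1 and at 15.6 and 20.3 CPM in CC080F1, a log2 difference of 0.91 (unadjusted p = 0.00906, adjusted p = 0.562 in edgeR). Il2, the cytokine, was at 1.26 and 1.50 CPM against 1.80 and 0.923 CPM. Socs1, Cish and Il15 were at 0.59, 0.46 and 0.43 on the log2 scale, with adjusted p of 0.830 to 0.831 in edgeR.

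Ligands of the TNF receptors gave 0 calls of 3. Tnfsf18, the GITR ligand, was at 0.0605 and 0.0683 CPM in CC075F1 and at 0.513 and 0.257 CPM in CC080F1, a log2 difference of −2.17 (adjusted p = 0.555 in edgeR) at a very low level. Tnfsf9, the 4-1BB ligand, was at 4.82 and 5.31 CPM against 5.14 and 5.53 CPM. The 11 signalling genes of the TRAF and NF-kappaB list gave 0 calls and a median of −0.03, with Traf1 at 0.24, Traf5 at 0.13, Traf3 at −0.30 and Rel at −0.39.

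Chemokines of the CCR8 and CCR4 axis were all above 0 without passing: 0 of 4 tested genes were called. Ccl8, a ligand of CCR8 in mice, was at 90.7 and 128 CPM in CC075F1 and at 24.6 and 74.2 CPM in CC080F1, a log2 difference of 1.50 ± 0.56 (SE; adjusted p = 0.830 in edgeR). Ccl1, the other ligand of this receptor, was at 2.66 and 0.935 CPM against 0.791 and 1.57 CPM, and Ccl17 and Ccl22, ligands of CCR4, were at 0.69 and 0.47 on the log2 scale. Of the other Ikaros-family genes, 0 of 4 were called: Ikzf1 was at 0.19 and Ikzf5 at −0.27 on the log2 scale. Ikzf3 (Aiolos, found in lymphocytes) was at 1.59 and 0.813 CPM in CC075F1 and at 0.374 and 0.737 CPM in CC080F1, a log2 difference of 1.33 (unadjusted p = 0.0303, adjusted p = 0.819 in edgeR).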

How the data were processed

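Visium libraries of 4 tumor sections were used, 2 per strain. Per the file headers and the study's methods, the authors processed the reads with Space Ranger 1.3.1 with mm10 as the genome. What they deposited are unnormalized UMI counts for each gene in each spot covered by tissue. Groups came from the sample labels. Each section is a different tumor, so p-values measure the spread between tumors of a strain.

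Counts were summed per section and fitted with edgeR 4.0.16 (R 4.3.3; TMM scaling, filterByExpr, quasi-likelihood test, Benjamini-Hochberg adjustment over all 15572 tested genes). Scripts were tested on simulated data. Alternatives used DESeq2 1.42.0 and limma 3.58.1, other scalings, no filter and leaving out sections. Values per section were compared by exact two-sided permutation. Shares at 20000 UMIs per spot are exact hypergeometric expectations. Shares over all genes for spot shares and co-occurrence were added after the data were seen. Intervals and the floor of 3 UMIs cover counting error only.

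The 7 genes and the gene lists were chosen with earlier results of these data known. Named were all 7 genes and the list genes past an adjusted p of 0.05. Per pathway list, up to 4 with the largest log2 fold change at a mean of at least 1 CPM were named too. Ctla4, Icos, Il2, Tnfsf18, Ikzf3, Klrb1c, Il4i1, Egfl7 and Ecscr were added after their values were seen. The 5 genes most like the 7 over tiles were taken from those of at least 5 CPM in every section. The authors' images and scale factors were not used.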

Additional observations from a re-analysis of the deposited data

Results flagged for a closer look

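Over the 47 pairs screened (a Treg gene with another, or with Cd3, Cd4, Cd8a, Ptprc, Ccr7 or Adgre1, at least 5 spots expected), 3 had co-occurrence ratios above 1 in both CC075F1 sections and not above 1 in either CC080F1 section. The opposite split was screened for too. The share of all gene pairs that split the strains in this way was not counted, so 3 of 47 cannot be set against a background. Foxp3 and Tnfrsf9 stood at 1.64 and 2.26 in CC075F1 and at 0.544 and 0.610 in CC080F1, a ratio of means of 3.38. Foxp3 and Ikzf2 stood at 1.02 and 1.11 against 0.722 and 0.995, a ratio of means of 1.24. Il2ra and Cd8a stood at 1.08 and 1.31 against 0.656 and 0.929, a ratio of means of 1.51. At 10000 UMIs per spot, 0 of the 3 kept this pattern: in CC080F1 Foxp3 and Tnfrsf9 stood at 0.504 and 1.06, Foxp3 and Ikzf2 at 0.670 and 2.23, and Il2ra and Cd8a at 0.487 and 2.20 (0.994 and 1.92 in CC075F1). With no thinning, Il2ra and Cd8a lost it too, at 1.33 in CC080F1 replicate 2. The exact permutation p over sections was 0.333 for each, the smallest that 2 against 2 sections allow, so the difference between strains was not tested in a way that could pass a threshold.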

How the results depend on the processing

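There were 11 alternative fits. Of the 6 tested genes, 0 were called in those that kept all 4 sections. The lowest adjusted p of these 6 genes there was 0.291 (Tnfrsf18, edgeR with the replicate block). Ccr8, tested only with no filter on low counts, was not called. The number of genes called over all genes did move from 14: it was 40 with library size alone, 480 with no filter on low counts, 194 with DESeq2's Wald test and 287 with the replicate block, and it ran from 11 to 207 when 1 section was left out. Library size alone moved the all-gene median to −0.31 on the log2 scale. Replicate numbers were shared by the strains' labels, but with 2 pairs (correlation of deviations 0.165) they did not show a pairing.

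The direction changed in 9 of 66 values of single genes. On the log2 scale Foxp3 came to −0.070 with library size alone, and it ran from −0.40 (without CC075F1 replicate 1) to 0.89 (without CC080F1 replicate 2) when 1 section was left out, at −0.36 without CC080F1 replicate 1. Tnfrsf9 came to 0.11 with limma-voom, and 0.12 with the replicate block, and ran from −0.61 (without CC080F1 replicate 1) to 0.88 (without CC080F1 replicate 2), at 0.00031 without CC075F1 replicate 1. Il2ra ran from −0.79 (without CC080F1 replicate 1) to 0.23 (without CC080F1 replicate 2) and Ikzf2 from −0.38 (without CC075F1 replicate 1) to 0.0051 (without CC075F1 replicate 2).

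The ratio of strain means of the Foxp3 share ran from 0.553 to 1.50 when 1 section was left out, and that of Foxp3 per 100 Cd8a UMIs from 0.0782 to 0.367. Per 100 Cd3 UMIs the ratio ran from 0.162 to 0.489. With Cd4 or Ptprc as the denominator, chosen after the data were seen, it was 0.677 and 0.886. The co-occurrence of Foxp3 and Il2ra ran from 2.13 to 2.68 and the edge ratio of Foxp3 from 1.25 to 2.44 without 1 section. The cause of these shifts was not tested. The 37 to 96 Foxp3 UMIs per section limit every statement on that gene.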
